A study of Mus musculus with 11 samples.

Results

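The subject is a set of 34 genes of the cell cycle, read in single cells isolated from the blood vessels of the mouse brain. The members were chosen by symbol, as 34 of the 32287 features in the count tables. They fall into 8 genes of DNA replication and nucleotide supply, 24 genes of mitosis and 2 regulators of the cytoskeleton that are also used outside the cycle. The question was which cell types held cells with 3 or more members detected, meaning at least 1 unique molecular identifier (UMI, 1 captured transcript) of each, and whether the share of such cells per mouse differed with genotype.

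Cells came from 11 mice, 6 labelled R182C-TgN3 (CADASIL mice, line Tg350) and 5 labelled WT-TgN3 (control mice, line Tg100), with 1 droplet library per mouse. Both groups carried a human NOTCH3 transgene, in its R182C form in the CADASIL mice and in its wild-type form in the control mice, so that the controls were not mice without a transgene. All mice were untreated, of both sexes and 6 or 9 months old (3 CADASIL and 3 control mice at 6 months, 3 and 2 at 9 months), and were processed in 4 batches, each of which held 1 age. Microvessel fragments were pulled down with antibodies to CD31, an endothelial surface protein, and digested to single cells, so the share of each cell type reflects the isolation as well as the tissue.

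A cell that divides copies its DNA in S phase and separates the copies in mitosis. Genes of replication are switched on by E2F factors when a cell enters the cycle, and genes of mitosis later, through promoter elements called CHR and CCAAT box that bind the DREAM and MuvB complexes and the factor NF-Y. Endothelial cells and mural cells of the adult brain divide rarely, and microglia renew themselves at a low rate. Many replication proteins also act in DNA repair and some cytoskeletal members act in cells that do not divide, so detection of a single member is not a sign of division.

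Of 66658 barcodes, 58579 cells were kept, and library totals ran from 17550806 to 64215050 UMIs. The members gave 123269 UMIs, 0.0329% of all UMIs in the kept cells, and 18807 cells held none. Libraries shared barcode sequences. Across 55 pairs of libraries, between 5 and 350 barcodes were shared, 15 pairs shared over 40, and these were the pairs among the 6 libraries from 6-month mice. In all, 1671 kept cells (2.85%) had a barcode that was also listed in another library, and the shares and counts of cells with 3 or more and with 10 or more members are given with and without them. The human NOTCH3 transcript was higher in CADASIL than in control smooth muscle cells (log2 fold change 2.39 ± 0.28 SE, adjusted p = 0.0217) and pericytes (1.47 ± 0.19, adjusted p = 3.16e-05; edgeR quasi-likelihood test, Benjamini-Hochberg). In smooth muscle cells the call was lost with batch as a covariate, with mice paired by age and number as a replicate block, without the filter on low counts, and without CADASIL mouse 2 or control mouse 3, each of which left 0 genes called.

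The promoters of 6 members that the results below turn on are shown first, since they carry the elements named above in different combinations. Top2a is topoisomerase II alpha, which untangles chromosomes, Mki67 is Ki-67, the coat protein of mitotic chromosomes, and Cdk1 is the kinase that drives mitosis. They are used as markers of cells in the cycle. Kif23 (a kinesin of the midzone of dividing cells), Pcna (the sliding clamp of DNA polymerases) and Mcm6 (a subunit of the replicative helicase) were each detected in many more endothelial cells than those. Each sequence is 250 bases upstream of the gene's start in RefSeq on GRCm38.p6, written 5′ to 3′ on the gene's own strand. Capitals mark the CHR (TTTGAA or TTCGAA), the CCAAT box (CCAAT) and the E2F site (TTTGGCGC, TTTCGCGC, TTTCCCGC or TTTGCCGC), on either strand.
Top2a (chr11:99024190-99024439, minus strand): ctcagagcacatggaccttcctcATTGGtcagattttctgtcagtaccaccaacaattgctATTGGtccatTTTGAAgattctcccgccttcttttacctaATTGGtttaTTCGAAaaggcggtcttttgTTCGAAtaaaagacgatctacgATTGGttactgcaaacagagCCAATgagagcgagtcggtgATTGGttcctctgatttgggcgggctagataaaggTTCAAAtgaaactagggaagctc
Cdk1 (chr10:69352913-69353162, minus strand): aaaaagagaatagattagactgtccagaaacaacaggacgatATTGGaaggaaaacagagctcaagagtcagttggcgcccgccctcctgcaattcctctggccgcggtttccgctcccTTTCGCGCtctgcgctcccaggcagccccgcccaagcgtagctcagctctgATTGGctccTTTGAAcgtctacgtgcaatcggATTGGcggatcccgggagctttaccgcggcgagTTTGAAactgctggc
Mki67 (chr7:135716380-135716629, minus strand): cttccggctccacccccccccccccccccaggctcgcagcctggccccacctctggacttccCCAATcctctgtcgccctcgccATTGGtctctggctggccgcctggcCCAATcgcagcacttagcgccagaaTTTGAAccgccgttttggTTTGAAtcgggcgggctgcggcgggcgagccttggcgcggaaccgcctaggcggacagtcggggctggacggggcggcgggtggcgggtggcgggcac
Kif23 (chr9:61946800-61947049, minus strand): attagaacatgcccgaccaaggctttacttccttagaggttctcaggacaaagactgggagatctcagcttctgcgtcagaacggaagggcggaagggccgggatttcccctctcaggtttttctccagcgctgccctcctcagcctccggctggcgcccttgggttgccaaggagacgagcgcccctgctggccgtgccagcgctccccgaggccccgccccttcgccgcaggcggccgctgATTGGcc
Pcna (chr2:132253181-132253430, minus strand): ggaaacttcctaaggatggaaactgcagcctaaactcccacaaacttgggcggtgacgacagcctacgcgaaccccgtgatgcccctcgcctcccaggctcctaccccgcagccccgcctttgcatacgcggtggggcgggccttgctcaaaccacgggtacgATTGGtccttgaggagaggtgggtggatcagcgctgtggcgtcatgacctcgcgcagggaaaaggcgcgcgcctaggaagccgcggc
Mcm6 (chr1:128359706-128359955, minus strand): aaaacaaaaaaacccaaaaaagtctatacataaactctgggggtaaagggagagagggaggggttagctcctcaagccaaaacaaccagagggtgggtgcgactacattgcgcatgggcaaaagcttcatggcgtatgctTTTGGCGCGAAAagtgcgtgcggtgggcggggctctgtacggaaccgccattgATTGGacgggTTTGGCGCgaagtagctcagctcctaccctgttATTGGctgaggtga
Top2a, Cdk1 and Mki67 held matches to both the CHR and the CCAAT box. Kif23 and Pcna held a CCAAT box and no match to the CHR letters in this window, and Mcm6 held E2F sites and CCAAT boxes. Over the 30 members with a promoter sequence, a CHR was found in 9 of 21 mitotic genes (42.9%) and 1 of 8 replication genes (12.5%), against 19.6% of 27025 genes. A CCAAT box was found in 25 of 30 members (83.3%), against 37.5% of all genes. E2F letters were found in Cdk1, Mcm5 and Mcm6, 10% of the members against 2.16% of all genes. Matches could share bases, TTCGAA reads the same on both strands, and a match is a description of letters and not a bound site.

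Cells with 3 or more members were found in every one of the 5 main cell types. They were 8153 of the 58579 cells (13.9%), and endothelial cells held 77.2% of them. By type, 6298 of 35195 endothelial cells (17.9%), 646 of 14132 microglia (4.57%), 93 of 916 lymphocytes (10.2%), 44 of 2179 smooth muscle cells (2.02%) and 6 of 516 pericytes (1.16%) passed. Leaving out shared barcodes gave 18.2% of endothelial cells, 4.54% of microglia, 10.2% of lymphocytes, 2.03% of smooth muscle cells and 1.18% of pericytes. Types were gated on marker genes, so the markers are no independent check of the types. As a description, the median cell carried 9 of 10 microglial markers in microglia, 9 of 10 endothelial markers in endothelial cells, 6 of 6 in smooth muscle cells and in pericytes, and 5 of 15 in lymphocytes.

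Erythroid cells could not be assessed. The erythroid gate held 2 cells, neither with 3 or more members. A further 464 cells drew at least 10% of their UMIs from hemoglobin genes, and 151 of them (32.5%) held 3 or more members. Of these 464 cells, 455 carried 3 or more endothelial markers, Cldn5, a tight junction protein of brain endothelium, was detected in 450, and Klf1, an erythroid transcription factor, in 1. They are therefore called hemoglobin-rich here and not erythroid.

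Beyond these types, 4191 cells carried markers of more than 1 type, of which 1422 combined endothelial with smooth muscle markers and 856 endothelial with microglial ones. Among these mixed cells 781 (18.6%) held 3 or more members. Perivascular macrophages held 15 such cells of 209 (7.18%) and fibroblasts 12 of 89 (13.5%).

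Cells with 3 or more members were deeper than the others. Endothelial cells with 3 or more members had a median of 11671.5 UMIs, against 4268 in the other endothelial cells, and microglia 7413.5 against 4838.5. When every cell was thinned to 1000 UMIs, leaving out 332 microglia and 662 endothelial cells with fewer, 83 of 34533 endothelial cells (0.240%) and 34 of 13800 microglia (0.246%) still held 3 or more. Lymphocytes held 6 (0.656%), and smooth muscle cells and pericytes 0 of 2147 and 0 of 509. The raw shares of endothelial cells and microglia differed severalfold, and at 1000 UMIs their shares lay close together.

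Per mouse, the raw share was 18.0% ± 5.99 (SD, n = 11) of endothelial cells and 5.02% ± 1.94 of microglia, and it was higher in endothelial cells in 11 of 11 mice. At 1000 UMIs it was 0.250% ± 0.109 and 0.304% ± 0.261, higher in endothelial cells in 6 mice and in microglia in 5. At 2000 UMIs the endothelial share was higher in 10 of 11 mice (1.30% against 0.721%). At 5 or more members the order turned with depth, since endothelial cells were above microglia in 11 of 11 mice on raw UMIs (3.52% against 0.540%), and microglia were above endothelial cells in 10 of 11 at 1000 UMIs (0.200% against 0.0221%), with both at 0 in the other mouse.

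**Figure D1:**
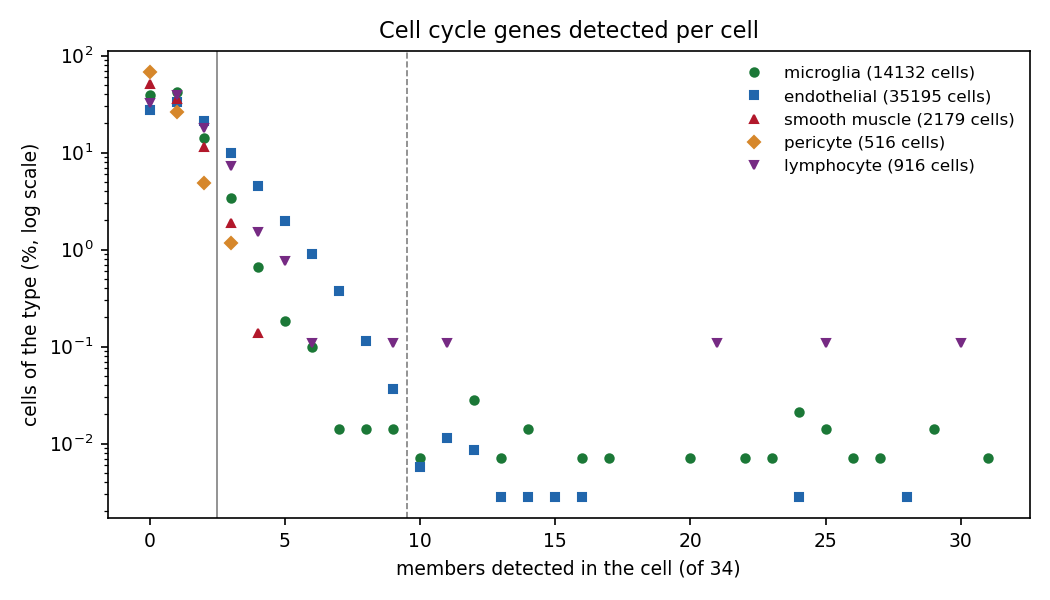
Share of the cells of each type (y axis, percent, log scale) by the number of members detected in the cell (x axis, of 34), 1 colour per cell type, with the solid and dashed lines at the thresholds of 3 and 10. From 2 to 9 members endothelial cells lie above microglia, and microglia reach 31 members while smooth muscle cells stop at 4 and pericytes at 3.

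The distribution of members per cell had a long upper end in a few types. In microglia 483 of the 646 cells held exactly 3 members and 94 held 4, while 2009 cells just below the threshold held 2. At 7, 8 and 9 members there were 2 cells each, and 23 microglia (0.163%, 95% exact interval 0.103 to 0.244) held 10 or more and 13 held 20 or more. In endothelial cells 3491 of the 6298 held exactly 3 and 7471 held 2, and 15 cells (0.0426%, 0.0239 to 0.0703) held 10 or more, 2 of them 20 or more. Of the lymphocytes 4 held 10 or more, 3 among 686 B cells and 1 among 230 T or NK cells. Of the mixed cells 20 did (0.477%), 11 of them with 20 or more, and of 96 cells with markers of more than 1 kind of leukocyte 5 did. Over all kept cells the count was 70. Smooth muscle cells and pericytes held none, and taking 3 cells as the limit that a count of 0 allows gives shares of up to 0.138% and 0.581%. These intervals and limits cover counting error only, and the threshold of 10 was set after the distribution had been seen.

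Of the 15 endothelial cells with 10 or more members, 5 sat on shared barcodes, held 735 to 2190 UMIs and 11 to 14 members. A single barcode sequence appeared as such a cell in 4 libraries and was listed in 6. Without shared barcodes the count was 10 in endothelial cells, 23 in microglia and 4 in lymphocytes. Per mouse the share with 10 or more members was 0.176% ± 0.116 of microglia and 0.0526% ± 0.0757 of endothelial cells (n = 11), higher in microglia in 8 mice and in endothelial cells in 3. Without shared barcodes it was 0.179% ± 0.118 and 0.0363% ± 0.0534, higher in microglia in 10 mice and in endothelial cells in 1. A further 8 barcodes with 10 or more members were removed by the doublet score.

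The genes behind 3 detected members differed between the types. In endothelial cells with 3 or more, Stmn1 (stathmin, a microtubule destabilizer) was among the detected members in 88.3%, Pcna in 78.4%, Kif23 in 49.7% and Mcm6 in 38.5%. In microglia they were Pcna in 88.9%, Mcm3 (another helicase subunit) in 52.0% and Stmn1 in 43.7%. In lymphocytes they were Pcna in 78.5%, Cenpa (the centromeric histone) in 47.3% and Mcm6 in 34.4%, and in smooth muscle cells Pcna in 81.8% and Mcm6 in 63.6%. Top2a or Mki67 was detected in 11.8% of these microglia, 1.92% of these endothelial cells, 17.2% of these lymphocytes and none of these smooth muscle cells or pericytes. Without Stmn1, Diaph3 and Pcna, 129 microglia and 1679 endothelial cells still held 3 or more of the remaining members.

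**Figure D2:**
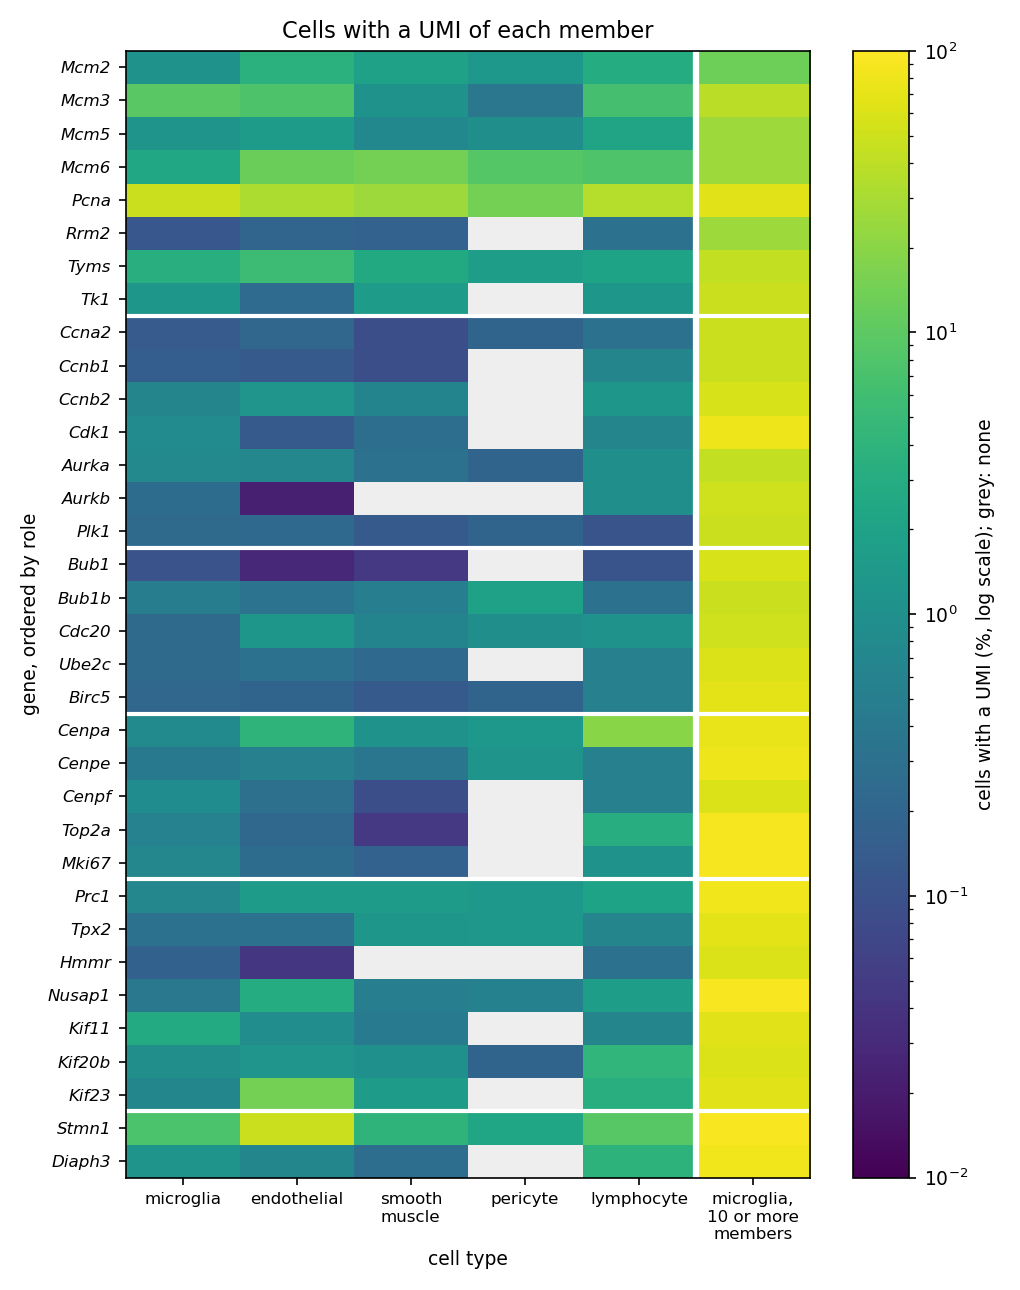
Share of the cells with a UMI of each member (colour), 1 row per gene in order of role and 1 column per cell type. Pcna is the highest row in the column of all microglia (47.9%) and Stmn1 in endothelial cells (47.8%). Mitotic rows such as Aurkb and Bub1 stay below 1% in the columns of all microglia and endothelial cells.

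Of the replication members, Pcna and Mcm6 were detected in many cells that held few other members, and Rrm2 in few cells. Pcna was detected in 6765 microglia (47.9%) and 11302 endothelial cells (32.1%), and in 26.3% of smooth muscle cells. Only 0.587% of its microglial UMIs lay in the 23 cells with 10 or more members. Mcm6 was detected in 12.7% of endothelial cells, 14.6% of smooth muscle cells and 2.39% of microglia. Of the 4457 endothelial cells with Mcm6, 9 held at least 9 other members. Rrm2, the subunit of ribonucleotide reductase made in S phase, was detected in 17 microglia and 70 endothelial cells. Its UMIs lay to 52.2% in the 23 microglia, and it was in 0 of the 15 endothelial cells. Both sets of cells were chosen on the members, so these shares are descriptions.

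Of the mitotic members, Top2a, Mki67, Ube2c, Birc5 and Hmmr were among those with most of their microglial UMIs in the 23 cells. These cells were chosen for holding 10 or more members, so a high share of member UMIs in them follows in part from the choice. The shares are descriptions. Top2a was detected in 83 microglia (0.587%) and 79 endothelial cells (0.224%), against 1 of 2179 smooth muscle cells (0.0459%), whose median depth of 7812 UMIs was above the 4950 and 4748 of microglia and endothelial cells. Of the microglial UMIs of Top2a, 72.6% lay in the 23 cells, against 27.3% of the endothelial UMIs in the 15 cells. For Mki67 the shares were 64.0% and 37.8%. For Ube2c (the E2 enzyme of the anaphase complex) they were 75.9% and 12.5%, for Birc5 (survivin, of the chromosomal passenger complex) 72.1% and 24.4%, and for Hmmr (a spindle protein) 83.1% and 52.2%. Without shared barcodes the endothelial shares, now of 10 cells, were 23.2% for Top2a, 32.0% for Mki67, 10% for Ube2c, 20% for Birc5 and 42.1% for Hmmr. Over all 24 mitotic members the microglial share ran from 6.43% for Kif11, detected in 391 microglia, to 89.5% for Bub1, with Kif20b at 21.0%, Cenpa at 30.2% and Kif23 at 40.7%.

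Kif23, Cenpa, Nusap1 and Stmn1 were detected in many endothelial cells, few of which held 9 or more other members. The median endothelial cell with Kif23, Cenpa or Nusap1 held 2 other members, and with Stmn1 it held 1. Kif23 was detected in 5060 endothelial cells (14.4%), of which 13 held at least 9 other members, and in 96 microglia (0.679%), of which 15 did. In smooth muscle cells it was detected in 1.61%. Cenpa was detected in 1386 endothelial cells, 7 of which held at least 9 others, and Nusap1 (a spindle-associated protein) in 1062, of which 6 did. Nusap1 was detected in 56 microglia, and 21 of these (37.5%) held at least 9 others. Stmn1 was detected in 16811 endothelial cells (47.8%), and 14 of these held at least 9 others. At least 9 others were also held by 20 of 83 microglia with Top2a, 20 of 101 with Mki67 and 18 of 120 with Cdk1. In endothelial cells these were 9 of 79, 9 of 90 and 3 of 47. The median cell with Top2a, Mki67 or Cdk1 held 2, 1 and 1 other members in microglia. In endothelial cells it held 3, 4 and 2.

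The 23 microglia with 10 or more members held a median of 16 mitotic and 2 replication members, 18 of them held 10 or more mitotic members, and Top2a and Mki67 were each detected in 20, together in 18. Their median depth was 6193 UMIs (1523 to 14126), and the members made up a median of 93.7 of 10000 UMIs. The 15 endothelial cells held a median of 9 mitotic and 4 replication members at a median of 21729 UMIs (735 to 54648), with 33.1 member UMIs per 10000 and Top2a in 9. Without shared barcodes the remaining 10 endothelial cells held medians of 7 mitotic and 5 replication members at 30179.5 UMIs (7188 to 54648), with 13.04 member UMIs per 10000 and Top2a and Mki67 in 5 cells each. The 4 lymphocytes held medians of 20 mitotic and 3 replication members and 151 member UMIs per 10000. In microglia with 3 or more members the median was 6.04 member UMIs per 10000. The members chose these cells, so these values are descriptions.

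The levels of the members differed between microglia and endothelial cells of the same mice. Counts were summed per mouse and type and compared with the mouse as a block (edgeR quasi-likelihood test, Benjamini-Hochberg over all genes, n = 11 mice, every p below from this fit). Microglia had higher levels of 39.5% and lower levels of 47% of 13530 genes, so a call alone sets no gene apart. Of the members 31 were tested, 18 higher, 8 lower and 5 not called, and Rrm2, Ccna2 and Bub1 were too low to test. The median log2 difference was 1.00 over the tested members and −0.11 over all genes, or −0.01 over all genes with DESeq2 size factors.

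Of the 18 members higher in microglia 14 were mitotic, as were 22 of the 31 tested. Top2a stood at 1.52, 3.39 and 5.32 CPM (the gene's UMIs scaled to a total of 1000000 per mouse and type, in the lowest, median and highest CADASIL mouse) in microglia and at 0.127, 0.351 and 1.25 in endothelial cells. In the control mice 1 to 5, in order, it stood at 1.57, 1.72, 7.08, 8.08 and 2.97 in microglia and at 0.506, 0.144, 0.561, 0.694 and 0.232 in endothelial cells. Every microglial value was above every endothelial one, and the log2 difference was 3.00 ± 0.28 (SE, adjusted p = 2.62e-09). Mki67 was higher by 2.50 ± 0.24 (adjusted p = 3.77e-09), Cdk1 by 3.34 ± 0.29 (adjusted p = 7.58e-10) and Aurkb, the kinase of the chromosomal passenger complex, by 3.88 ± 0.56 (adjusted p = 1.75e-06), the last from 42 microglial and 8 endothelial UMIs in all.

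Of the other spindle and centromere members, Hmmr was higher in microglia by 3.10, Kif11 (the kinesin that separates the spindle poles) by 2.04, Cenpf (a kinetochore protein) by 1.92 and Tpx2 (an activator of Aurora A) by 1.00 on the log2 scale. The Hmmr value rests on few UMIs, 76 in microglia and 19 in endothelial cells when shared barcodes are left out. Among checkpoint and anaphase members, Bub1b (a spindle checkpoint kinase-like protein) was higher by 1.18 and Birc5 by 1.15. Plk1 (Polo-like kinase) was higher by 1.00. Ccnb1 (cyclin B1) was higher by 1.16 and Ube2c by 1.00, and both calls were lost with DESeq2 (adjusted p = 0.152 and 0.124). The call for Ube2c was also lost without the filter on low counts (adjusted p = 0.0502, edgeR) and without CADASIL mouse 2, 3 or 4 or control mouse 3 or 4, with a log2 difference of 0.63 (adjusted p = 0.126) without control mouse 3. The call for Ccnb1 was also lost without CADASIL mouse 1 or 3 or control mouse 2 (adjusted p from 0.0571 to 0.0987, edgeR). Aurka (Aurora A) was higher by 0.63 and lost its call without CADASIL mouse 3 (adjusted p = 0.0568).

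Of the replication members, Pcna ran from 160 to 187 CPM in CADASIL microglia and from 137 to 202 in control microglia, against 65.6 to 88.3 and 66.4 to 99.1 in endothelial cells. Every microglial value was above every endothelial one, and the log2 difference was 1.24 ± 0.05 (adjusted p = 1.30e-15). Mcm3 was higher by 0.76 and Tk1 (thymidine kinase, of the nucleotide salvage path) by 2.91. Diaph3, an actin nucleator, was higher by 1.45.

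The 8 members lower in microglia came from several roles. Kif23 ran from 0.759 to 2.75 CPM in CADASIL microglia and from 1.92 to 4.62 in control microglia, against 35.5 to 51.0 and 20.8 to 44.3 in endothelial cells, a log2 difference of −3.97 ± 0.17 (adjusted p = 2.04e-12). Stmn1 ran from 15.2 to 25.0 and from 15.2 to 24.4 in microglia, against 116 to 184 and 150 to 174 in endothelial cells, a difference of −2.95 ± 0.08 (adjusted p = 2.89e-18). For both genes every endothelial value was above every microglial one. Mcm6 differed by −2.05, Nusap1 by −1.92, Cenpa by −1.60, Cdc20 (an activator of the anaphase complex) by −1.29, Mcm2 by −1.16 and Tyms (thymidylate synthase) by −0.33.

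Ccnb2, Cenpe, Prc1, Kif20b and Mcm5 were not called, with log2 differences from −0.23 (Ccnb2) to 0.48 (Cenpe). Kif20b passed with DESeq2 size factors (0.36, adjusted p = 0.0415).

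**Figure D3:**
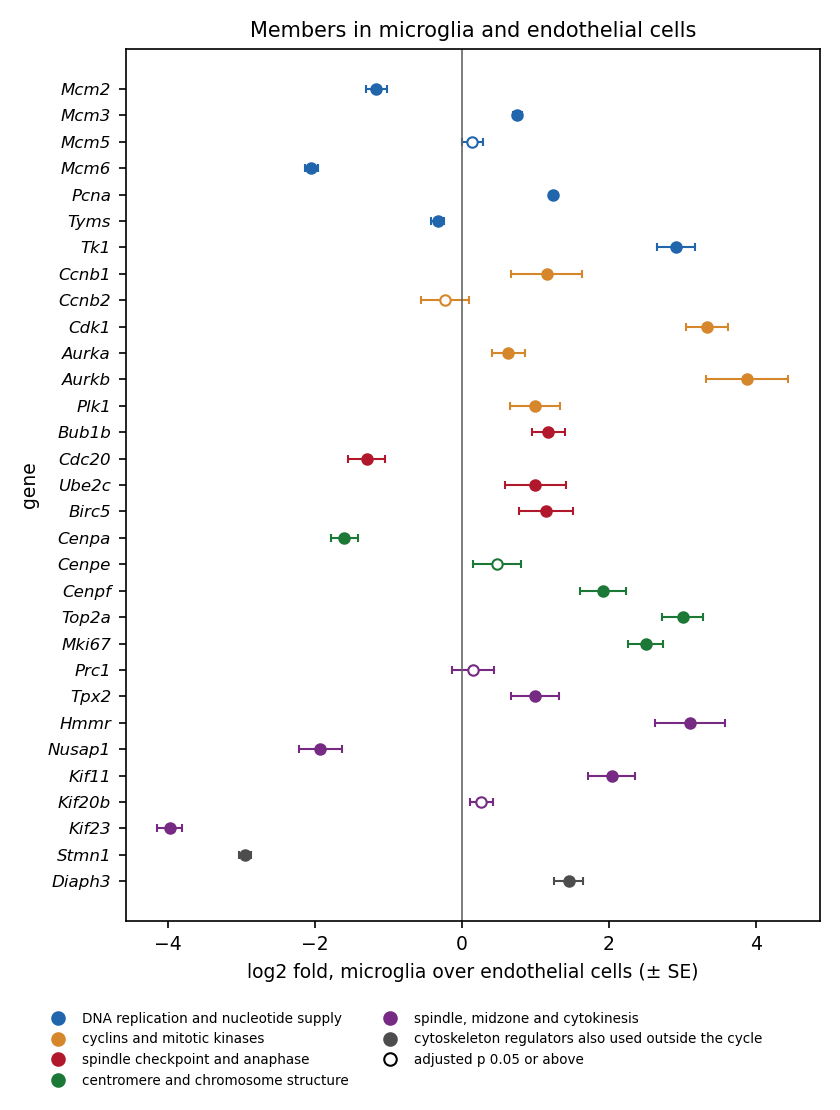
Log2 fold of each tested member, microglia over endothelial cells of the same 11 mice (x axis, ± SE), 1 row per gene. Aurkb, Cdk1, Hmmr and Top2a lie at 3.00 or above, and Kif23 and Stmn1 at −3.97 and −2.95.

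Cell cycle genes outside the set were read from lists. Of 44 tested G2 and M phase genes, 18 were higher and 14 lower in microglia, with a median log2 difference of 0.10 against −0.11 over all genes. The largest differences were for Ckap2l (5.62), Kif2c, Pbk and Cks2 (3.84). Pbk had 40 UMIs in microglia with 3 or more members and 0 in the other microglia, and Kif2c had 26 and 38. No fold is given for either, since they rest on so few UMIs. Of 29 S phase genes, 6 were higher and 21 lower (median −0.82), with the largest differences for Prim1 (−2.57), Dut (−2.43), Hells (−2.15) and Cdt1 (1.76). Of 12 inhibitors and quiescence genes, 3 were higher and 8 lower, among them Cdkn2b (−4.10), Cdkn1c (−3.00) and Cdkn1a (−1.94), inhibitors of cyclin-dependent kinases, with Btg2 at 2.24. Of 14 entry and transcription factors, 8 were higher and 4 lower, with Myc at 5.59, E2f7 at −5.18, Ccnd2 (cyclin D2) at −4.73 and E2f3 at 3.29.

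Within microglia, cells with 3 or more members were set against the remaining microglia, mouse by mouse, over genes other than the members (edgeR, mouse as a block). Of 10318 genes, 243 (2.36%) were higher and 143 (1.39%) lower. Of 48 tested G2 and M phase genes, 3 had 3 UMIs or fewer in the remaining microglia. Of the other 45, 40 were higher and none lower. The median log2 difference over the 48 was 2.77, against −0.01 over all genes. The genes with the largest fitted differences, all of mitosis, were at or near 0 in the remaining 13486 microglia and passed the filter on low counts through the chosen cells, so no fold or p is given for them. Pbk had 40 UMIs in the chosen cells and 0 in the others, Kif18b 20 and 0, Nek2 19 and 1, and Nuf2 25 and 4. The 3 G2 and M phase genes with 3 UMIs or fewer in the others were Pbk, Kif18b and Nek2. With them at the bound that 3 UMIs give, the median stayed at 2.77. Of 28 S phase genes 22 were higher, among them Uhrf1 (2.97) and Cdc45 (2.78). The cells had been chosen on genes of the same process, and their median depth was higher, as given above.

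Of the entry factors E2f1 was higher in these microglia (2.90). E2f8, with 17 UMIs in the chosen cells and 7 in the others, was also called. E2f7 had 12 and 3, and passed the filter on low counts through the chosen cells, so its call is not counted. Among inhibitors, Cdkn2c (1.52), Rbl1 (1.25) and Cdkn1a (1.04, p21) were higher and Btg2, an antiproliferative gene, was lower (−0.21). Of 19 disease-associated genes Lgals3 was higher (1.46) and Trem2 lower (−0.16). Of 14 homeostatic genes Csf1r was lower (−0.16) and the other 13 were not called. Jund (−0.19), Junb (−0.19) and Atf3 (−0.15) were lower of 15 immediate-early genes, and none of 12 interferon genes was called.

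These differences rested in large part on the 23 cells with 10 or more members. Without them 50 genes were higher and 57 lower, 3 G2 and M phase genes and 14 S phase genes among the higher. With DESeq2 the lower genes numbered 1160.

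The same comparison in endothelial cells called 25% of 12803 genes higher and 27.7% lower, and the median depth of the 2 sets differed by the values given above. Of 35 G2 and M phase genes, 10 were higher and 6 lower, with Racgap1 (0.76), Ect2 (0.68) and Cdca8 (0.64) higher and Spc25 (−0.55) lower. Of 29 S phase genes 7 were higher and 1 lower, with higher levels of Ung (0.57), Cdc6 (0.55), Mcm4 (0.33) and Atad2 (0.26). All 15 immediate-early genes were higher, with Egr1 at 0.96 and Atf3 at 0.83, and 13 of 14 homeostatic microglial genes were lower, with Fcrls at −1.43 and Csf1r at −1.35. Cdkn2b (−1.20) and Cdkn1c (−0.68) were lower and Cdk6, a G1 kinase, was higher (0.94). The part of depth and of microglial RNA in these differences was not tested.

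In lymphocytes 4 mice had 10 or more such cells, and edgeR called 0 of 4251 genes (0% higher and 0% lower). At an unadjusted p under 0.05 the count was 175, and DESeq2 called 5.

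The shares with 3 or more members overlapped between the genotypes in every type. In microglia the CADASIL mice 1 to 6 ranged from 3.51% to 8.75% with a median of 5.09%, and the control mice stood at 3.01%, 3.25%, 3.11%, 7.82% and 5.63%. The means were 5.40% ± 1.88 (SD, n = 6) and 4.57% ± 2.12 (n = 5), a difference of 0.836 percentage points. In endothelial cells the CADASIL mice ranged from 13.8% to 28.4% with a median of 16.0%, the control mice stood at 13.04%, 17.8%, 12.0%, 30.3% and 17.6%, and the means were 17.9% ± 5.41 and 18.2% ± 7.28. Because the members were chosen with results of these data known, no test was run on these shares.

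In the rarer types the ranges were wide. Smooth muscle cells passed in 1.28% ± 1.13 of CADASIL and 1.96% ± 1.60 of control mice, and pericytes in 1.11% ± 1.74 (n = 6) and 2.08% ± 1.62 (n = 4), from 3 cells in each group. Lymphocytes passed in 12.8% ± 7.75 (n = 6) and 11.03% ± 9.23 (n = 4). A mouse with fewer than 20 cells of a type was left out of that type's shares.

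**Figure D4:**
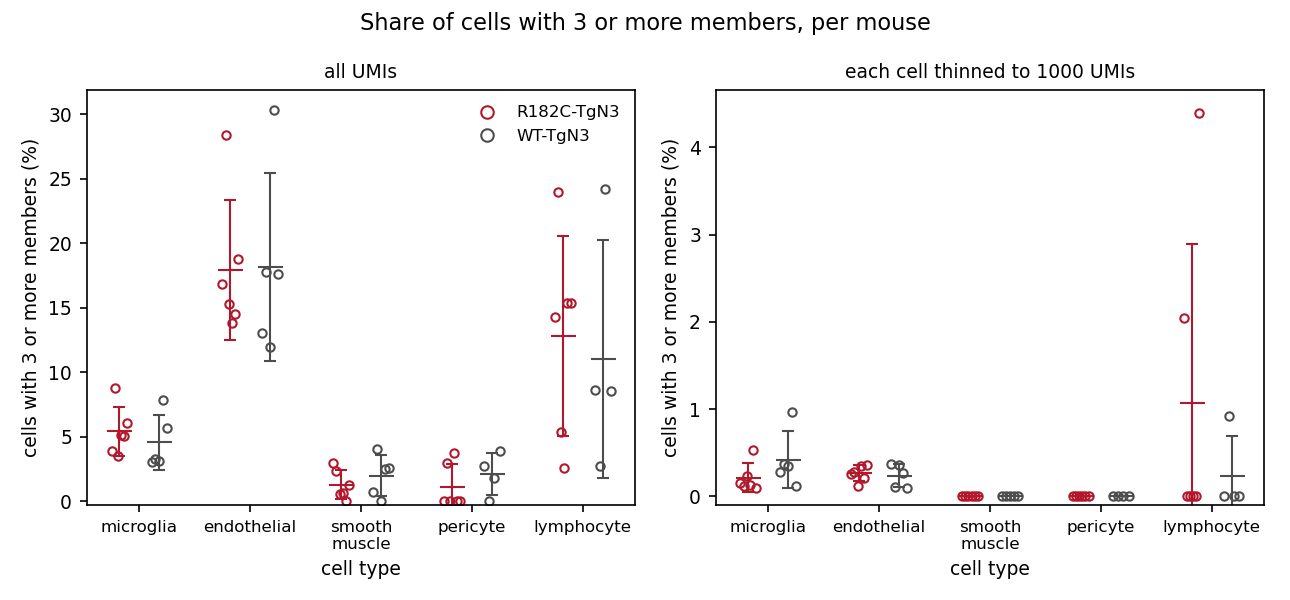
Share of cells with 3 or more members (y axis, percent) per mouse and cell type, on raw UMIs and after thinning each cell to 1000 UMIs. Each point is 1 mouse, coloured by genotype, and the bars give mean ± SD. The 2 genotypes overlap in every type, and the endothelial and microglial shares, 18.0% and 5.02% on raw UMIs, come to 0.250% and 0.304% after thinning.

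The share also moved with the depth of the library. Control mouse 4 and CADASIL mouse 2 had the highest endothelial medians, 7235 and 6530.5 UMIs, and the highest shares, 30.3% and 28.4%. Control mouse 3 had the lowest, 3054 UMIs and 12.0%. In microglia the same held for CADASIL mouse 2 (7994 UMIs, 8.75%) and control mouse 4 (6719 UMIs, 7.82%), and control mice 2 and 1 had the lowest medians (3530 and 3550 UMIs) with 3.25% and 3.01%.

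At 6 months the microglial share was higher in all 3 CADASIL mice than in all 3 control mice (means 5.41% and 3.12%). Their median depths lay apart in the same way, 4774.5 to 6419 UMIs against 3530 to 4256. At 9 months the groups overlapped, with means of 5.39% and 6.73%. Within batches the microglial difference was −0.402 in batch 1, 1.96 in batch 3 and 2.96 percentage points in batch 4, where each genotype had 1 mouse, and batch 2 held 1 CADASIL mouse only. At 1000 UMIs the microglial means were 0.210% ± 0.167 in CADASIL and 0.417% ± 0.326 in control mice, the opposite order, and the groups overlapped. The endothelial differences within batches were −1.37, −1.23 and 6.81 percentage points.

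**Figure D5:**
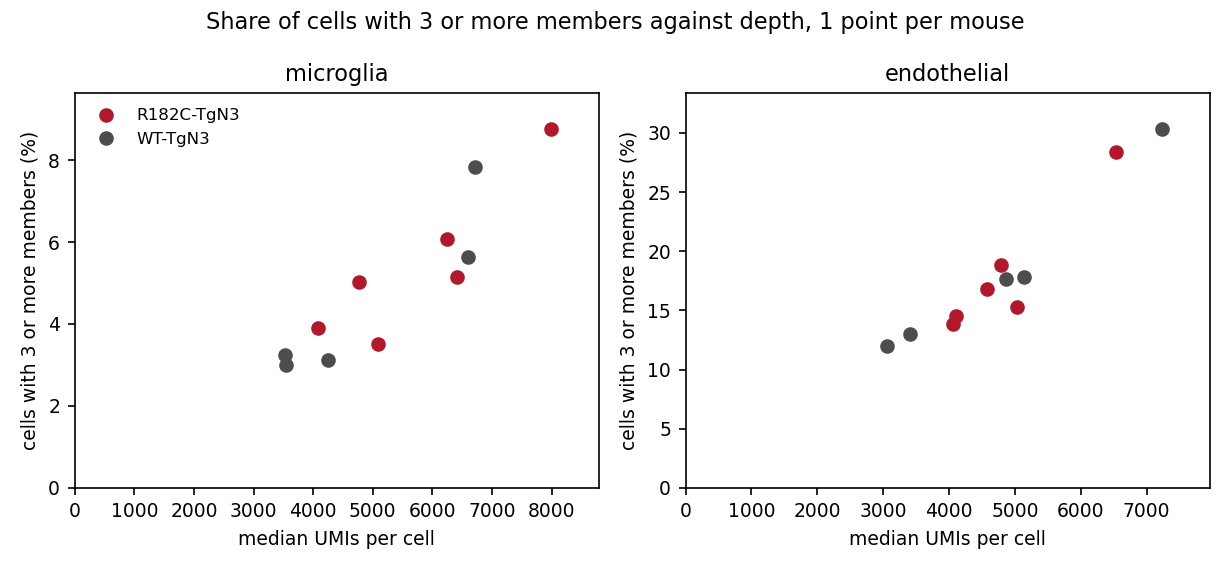
Share of cells with 3 or more members (y axis, percent) against the median UMIs per cell of the same type (x axis), 1 point per mouse, in separate panels by cell type. Endothelial shares run from 12.0% at 3054 UMIs to 30.3% at 7235 UMIs.

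Cells with 10 or more members were found in microglia of all 11 mice. The CADASIL mice 1 to 6 held 2, 1, 2, 1, 1 and 1 of them and the control mice 1 to 5 held 2, 2, 8, 2 and 1, so that 8 of the 23 came from control mouse 3 and 15 from the other mice. The shares were 0.116% ± 0.0343 (n = 6) and 0.249% ± 0.141 (n = 5) and overlapped. At 6 months all 3 control mice (mean 0.269%) lay above all 3 CADASIL mice (mean 0.130%), and at 9 months the means were 0.219% and 0.101% and overlapped. The difference, CADASIL minus control, was −0.124 percentage points in batch 1, −0.0580 in batch 3 and −0.30 in batch 4, from counts of 1 to 8 cells per mouse, and was not tested. In endothelial cells the CADASIL mice held 1, 0, 0, 4, 4 and 4 and the control mice 0, 0, 1, 1 and 0, and without shared barcodes 1, 0, 0, 3, 2 and 3 against 0, 0, 0, 1 and 0. CADASIL mice 4, 5 and 6 were the 6-month mice of that group. The endothelial shares were 0.0849% ± 0.0918 and 0.0138% ± 0.0190, and without shared barcodes 0.0602% ± 0.0629 and 0.00765% ± 0.0171, and overlapped both times. At 6 months the means were 0.164% in CADASIL and 0.0104% in control mice, and 0.114% and 0% without shared barcodes, with all 3 CADASIL mice above all 3 control mice. These shares are on raw UMIs. At 1000 UMIs 1 endothelial cell in each genotype held 10 or more members (0.00463% and 0.00651%). At 2000 UMIs 3 did in CADASIL and 0 in control mice. Of the microglia, 4 in CADASIL and 5 in control mice did at 1000 UMIs (0.0574% and 0.0786%), and 5 and 9 at 2000 UMIs. Of the 4 lymphocytes 3 came from CADASIL mouse 6 and 1 from control mouse 3.

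The share of cells with a UMI of Top2a or of Mki67 was tested singly, in cells thinned to 1000 UMIs (two-sided exact permutation test over mice, 6 tests with Benjamini-Hochberg adjustment). For Mki67 in microglia it was 0.184% ± 0.122 in CADASIL mice (n = 6) and 0.301% ± 0.0906 in control mice (n = 5), with an exact p = 0.108 and an adjusted p = 0.649. For Top2a in microglia it was 0.256% ± 0.156 and 0.260% ± 0.0759 (exact p = 0.965). In endothelial cells the shares were 0.0313% and 0.0479% for Top2a and 0.0557% and 0.0340% for Mki67, and in lymphocytes 1.30% and 0.459% for Top2a and 0.890% and 0% for Mki67. The lymphocyte values rest on 11 cells with Top2a and 4 with Mki67. Without thinning the order for Top2a in lymphocytes was the opposite, 1.501% in CADASIL and 5.65% in control mice, and at 2000 UMIs the differences were −0.552 percentage points for Top2a and −0.362 for Mki67. The adjusted exact p of these 4 was 0.886. The smallest p these designs allow was 0.00216 with 11 mice and 0.00476 with the 10 mice of the lymphocyte tests.

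No member was called between the genotypes in any of the 5 types. The edgeR quasi-likelihood test on counts summed per mouse called 0% of 10956 genes in microglia, 0% of 12901 in endothelial cells, 0% of 4935 in lymphocytes, 0.0115% of 8725 in smooth muscle cells and 0.0422% of 2368 in pericytes. The 1 gene called in each of the last 2 was the human NOTCH3 transcript. With the replicate block 11 genes were called in pericytes and 0 in smooth muscle cells. DESeq2 called 0, 0, 0, 1 and 1 genes. At an unadjusted p under 0.05, 117, 219 and 149 genes passed in microglia, endothelial cells and lymphocytes.

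Of the members 22 were tested in microglia and 25 in endothelial cells, with median log2 differences (CADASIL minus control) of −0.21 and 0.06, against 0.01 and 0.00 over all genes. A single member passed the unadjusted threshold in each. Cenpe, the kinesin of the kinetochore, differed by −1.13 ± 0.44 in microglia (adjusted p = 1.00, edgeR), and Ube2c by 1.05 ± 0.32 in endothelial cells (adjusted p = 1.00, edgeR). Top2a differed by −0.38 ± 0.39 in microglia and 0.45 ± 0.58 in endothelial cells, Mki67 by −0.23 ± 0.37 and 0.52 ± 0.59, Pcna by −0.06 ± 0.11 and −0.06 ± 0.10, and Stmn1 by −0.01 ± 0.15 and −0.05 ± 0.11. In smooth muscle cells and in lymphocytes 2 members each were tested (Pcna with Mcm6 and with Cenpa), and in pericytes 0.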

How the data were processed

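Single-cell RNA sequencing libraries (10x Genomics, 3′ chemistry) were aligned and counted by the authors with Cell Ranger 7.0.0 to the mm10 transcriptome with human NOTCH3 added, and the deposited values are raw UMI counts per gene and cell, not normalized. No cell annotation was used here. In the paper a control sample was excluded from the microglial analysis because its microglia were strongly polarized, and its text does not name the sample. No control mouse was left out of the main microglial results here. A barcode was kept as a cell with 500 genes or more and no more than 10% of its UMIs from mitochondrial genes, and doublets were removed by a score against simulated doublets (0.8% expected per 1000 barcodes). A cell was given a type when it carried at least 3 markers of that type. The next unrelated type also had to reach no more than 0.5 of the marker share of that type. Smooth muscle cells and pericytes, microglia and perivascular macrophages, and B and T or NK cells counted as related. Among related types the highest marker share decided, except that 3 perivascular macrophage markers took a cell out of microglia. A cell was called hemoglobin-rich when hemoglobin genes made up at least 10% of its UMIs. This gate, the threshold of 10 members and the alternative without shared barcodes were chosen after seeing the data. The members and gene lists were chosen with earlier results of these data known.

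Members were counted per cell on raw UMIs and after thinning to 1000 or 2000 UMIs. The mouse was the replicate, and shares per mouse needed at least 20 cells. Libraries of the same group differed beyond counting noise, so none was counted as a duplicate. Counts were summed per mouse and type and tested with edgeR 4.0.16 (TMM, filterByExpr, quasi-likelihood test, Benjamini-Hochberg at 0.05) in R 4.3.3, leaving out ribosomal, mitochondrial, Gm and Rik genes, with DESeq2 1.42.0 as an alternative. Cells with 3 or more members were compared with the rest where at least 4 mice had 10 such cells. The fits were tested on simulated data. Levels in the text are CPM of the summed UMIs. Named genes were every member and, of each list and comparison, up to 4 called genes with the largest absolute log2 fold change. Some genes are not reported here. Genotype, age and number came from the labels. Alternatives changed the gene and mitochondrial limits, doublet removal, thinning, the member threshold, the gate, normalization, the filter on low counts, the covariates (batch, sex) and the mice included. Promoter letters were read from RefSeq sequences on GRCm38.p6, in which 30 of the 34 members were matched.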

Additional observations from a re-analysis of the deposited data

Results flagged for a closer look

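The share of endothelial cells with 3 or more members in CADASIL mouse 2 was 28.4%, which lay apart from the other 5 CADASIL mice (13.8% to 18.8%) by Dixon's ratio (0.659 for 6 mice, above the 95% critical value). The endothelial cells of this mouse had a median of 6530.5 UMIs, the highest of the CADASIL group, and the part of depth in the difference was not tested. Of 14 groups examined this was the only one, and chance alone sets apart about 1 group in 20.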

How the results depend on the processing

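Of 661 recomputed values of 38 results, 618 were labelled unchanged. For shares this meant that the value kept its direction and call or moved by less than the spread between mice. For counts of genes it meant that the count was equal to the main count or within a set ratio of it. The microglial minus endothelial share with 3 or more members (−13.01 percentage points) turned to 0.0542 at 1000 UMIs and, with 10 or more members, to 0.124, and was −0.577 at 2000 UMIs, −19.4 with 2 or more members, −2.98 with 5 or more and −3.93 without Stmn1, Diaph3 and Pcna. In 9-month mice alone the genotype difference was −1.34 in microglia and −2.85 in pericytes. Of the single-gene shares, none past the threshold, Top2a in microglia turned to 0.0533 without thinning and 0.0137 within batches (without 1 mouse −0.0606 to 0.0275). Top2a in lymphocytes turned to −4.15 without thinning and −0.552 at 2000 UMIs (without 1 mouse −0.00245 to 1.30), Mki67 in lymphocytes to −0.362 at 2000 UMIs, and Mki67 in endothelial cells to −0.0229 without thinning (without 1 mouse −0.00932 to 0.0328). Mki67 in microglia ran from −0.152 to −0.0810 without 1 mouse, and without CADASIL mouse 5 the exact permutation p was 0.0476 before adjustment. Genes called by genotype numbered 13 in lymphocytes without the filter on low counts, 6 in pericytes with batch and 10 without the filter, and 0 in smooth muscle cells with batch or without the filter (0 to 1 without 1 mouse, 0 without CADASIL mouse 2 or control mouse 3). No member was called by genotype under any alternative run. In lymphocytes with 3 or more members, 1 gene was higher and 1 lower without the filter, 5 lower with DESeq2, 2 lower without the cells with 10 or more members and 0 to 1 in each direction without 1 mouse. In microglia with 3 or more members, 50 genes were higher and 57 lower without those cells, with 3 G2 and M phase and 14 S phase genes, and 1160 lower with DESeq2 and 389 without the filter. The cause was not tested. Mice were paired by age and by the number in their labels as a replicate block. Same-numbered mice did not deviate together in every pair (r from 0.0620 to 0.344 in microglia and −0.217 to 0.291 in endothelial cells, 5 pairs each, and 4 and 3 of the 5 pairs over 0.1), so this measure did not show that the numbers pair the mice, although the mice of each pair also shared an age and a batch. With the block the Top2a share in microglia turned to 0.0119, and 11 genes were called in pericytes and 0 in smooth muscle cells. The comparison of cells chosen after thinning, and in microglia and lymphocytes of cells with 5 or more members, was not run because fewer than 4 mice had 10 such cells. The count of members moved with depth, whose part was not tested, age and batch cannot be told apart, and with 6 and 5 mice only differences larger than the spread between mice are detectable.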

Other observations

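Of the 20 cells with 10 or more members and markers of more than 1 type, 14 held Ptprc (CD45, a surface protein of white blood cells), and 9 of these were without Cldn5. Cd34 was detected in 10 of the 20, Plac8 in 12, Kit in 6, Mpo (myeloperoxidase) in 5 and Cldn5 in 7. These genes were looked up after the cells had been chosen. All 5 such cells with markers of more than 1 kind of leukocyte held Ptprc and Cx3cr1.

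The 23 microglia with 10 or more members were also read as 1 pool of 170869 UMIs against the other microglia, as a description with no test. All 14 homeostatic genes were detected, and they summed to 31088 CPM against 38381, with 3 of 14 higher in the pool. Csf1r, Cst3 and Selplg were detected in 23 of the 23 cells. The 15 immediate-early genes summed to 12630 against 29937 CPM, with none higher. Cdkn1a (p21) stood at 1609 against 75.7 CPM and was detected in 18 cells, and Cdkn2c stood at 222.4 against 4.04 and was detected in 16. All 14 interferon genes were higher in the pool (1890 against 289 CPM in sum), but 6 of them, Ifit1, Ifit3, Ifit3b, Irf7, Isg15 and Usp18, were detected in a single cell.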
